A study of Homo sapiens with 6 samples.

Results

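The BCR-ABL and STAT5 signaling genes are 10 genes chosen by symbol: the fusion partners BCR and ABL1, the transcription factors STAT5A and STAT5B, the kinase JAK2, and the STAT5 targets PIM1, CISH, SOCS1, SOCS2 and SOCS3. Each matched 1 of the 61661 identifiers in the count table, and all 10 were among the 17686 genes with enough reads to be tested. The study measured mRNA by RNA-seq in K562 cells, a line from chronic myeloid leukemia in blast phase that carries the Philadelphia chromosome. The 6 libraries comprised 2 of shCTR cells, which carry a control shRNA and are wild type by label, 2 of shMETTL3 cells (METTL3 knockdown) and 2 of shMETTL14 cells (METTL14 knockdown). METTL3 and METTL14 form the enzyme that places N6-methyladenosine on mRNA. The stable METTL3 knockdown line was made with a lentiviral shRNA vector and puromycin selection, and its control with the same vector and a nonsense sequence. How the shMETTL14 line was made is not given in the sources used here. Nothing states that the 2 libraries of a group came from separate cultures, so p-values measure only the spread between these libraries.

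In chronic myeloid leukemia, the BCR-ABL1 fusion protein is a tyrosine kinase that is always active and keeps STAT5 phosphorylated without a cytokine signal. In normal blood cells, a cytokine receptor activates JAK2, JAK2 phosphorylates STAT5A and STAT5B, and the STAT5 dimer enters the nucleus and switches on its targets. Some of these targets close the loop: CISH, SOCS1, SOCS2 and SOCS3 encode inhibitors that bind receptors or JAK kinases and blunt the signal, while PIM1 encodes a kinase that favors survival and growth.

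The STAT5 dimer binds the palindrome TTCNNNGAA, where N is any base, and the CISH promoter is shown because it held this motif repeatedly. RefSeq promoter windows (GRCh38.p14, 250 bases before and 50 bases after the annotated start) were found for 9 of the 10 genes, 15 windows in all, and 1 window held a match. The motif reads the same on both strands, so each match counts once. The CISH window held 4 matches, at positions -241 to -233, -230 to -222, -129 to -121 and -112 to -104 from the start, where -1 is the base just before it. They lie in the following 150 bases, positions -250 to -101, at chr3:50611875-50612024 on the minus strand, written 5′ to 3′ with the 4 matches in capitals.
CISH promoter: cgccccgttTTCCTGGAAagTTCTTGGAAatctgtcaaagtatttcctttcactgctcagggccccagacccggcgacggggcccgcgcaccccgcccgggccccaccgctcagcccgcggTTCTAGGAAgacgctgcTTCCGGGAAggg
Of all 35116 windows of this length, 7.66% held at least 1 match, 0.456% at least 2, and 7 windows (0.0199%) at least 4. Among the other pathway genes described further on, BCL6 had a window with 4 matches. A match is a description of the letters, and the window of the other members without one says nothing about STAT5 at those genes.

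Libraries held between 19292574 and 20115304 counts. METTL3 was at 90.5 and 90.3 CPM (counts scaled to library size with edgeR's TMM factors) in shCTR and at 52.5 and 46.7 CPM in shMETTL3, a log2 fold change of -0.87 (adjusted p = 3.44e-07). METTL14 was at 33.2 and 34.2 CPM in shCTR and at 19.1 and 20.6 CPM in shMETTL14, a log2 fold change of -0.76 (adjusted p = 1.40e-05). Adjusted p-values here and further on are those of edgeR's quasi-likelihood test, adjusted over all 17686 genes by the Benjamini-Hochberg method, a gene was called at an adjusted p under 0.05, and the fold change is given with its standard error. All 8 erythroid markers of K562 cells passed the filter on low counts. Of 8 markers of other blood cells, CD3E, MS4A1, CD14 and MPO stayed at or under 3 counts in every library, and LYZ was the most abundant of the rest, at 15.4 to 64.9 CPM.

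Per kilobase of exon, the level of the 10 genes in shCTR cells spanned from PIM1 at 469 ± 5.35 CPM per kb (SD, n = 2) to SOCS3 at 4.82 ± 0.347 (SD, n = 2). STAT5A followed PIM1 at 133 ± 5.93, then STAT5B at 77.7 ± 0.320, SOCS2 at 61.1 ± 0.884 and ABL1 at 50.6 ± 2.63 CPM per kb (SD, n = 2 each). The lower part of the order was JAK2 at 23.8 ± 1.24, CISH at 22.9 ± 0.464, BCR at 11.1 ± 0.0825 and SOCS1 at 6.84 ± 1.39 CPM per kb. Neighbours in this order did not overlap between the shCTR libraries, except JAK2 (22.9 and 24.6) and CISH (22.6 and 23.3). The order moved at 2 places in the knockdowns. CISH stood above JAK2 in both, at 32.7 against 18.3 CPM per kb in shMETTL3 and at 31.1 against 22.1 in shMETTL14, with no overlap. SOCS1 stood below BCR in shMETTL3, at 10.3 against 12.1 CPM per kb, and above it in shMETTL14, at 13.0 against 11.8, again with no overlap. By CPM, PIM1 and STAT5A were within the top 1% of tested genes (percentiles 99.8 and 99.3 of the mean over the 6 libraries), whereas SOCS1 and SOCS3 were near the middle (percentiles 52.2 and 50.6).

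**Figure D1:**
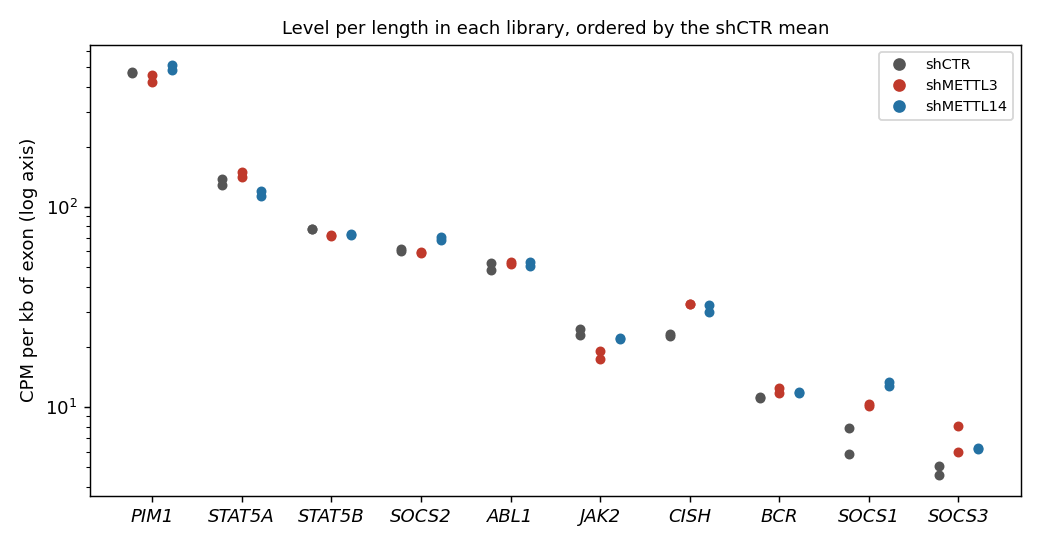
Level of each gene in CPM per kb of exon (log axis) in each library, with 1 point per library and the groups shCTR, shMETTL3 and shMETTL14 side by side. The genes are ordered by their shCTR mean, from PIM1 at 469 to SOCS3 at 4.82 CPM per kb, and CISH lies above JAK2 in every knockdown library, while the 2 genes overlap in shCTR.

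In the shMETTL3 cells, 4 of the 10 genes passed the test: the inhibitors CISH, SOCS1 and SOCS3 rose and JAK2 fell. Among all tested genes, 16.5% were called in this comparison, 8.73% higher and 7.73% lower. The median log2 fold change was 0.09 over the 10 genes and 0.0030 over all tested genes. In the shMETTL14 cells, CISH and SOCS1 rose and no member fell (1, STAT5A, was lower at an unadjusted p under 0.05 and by DESeq2), against 6.69% of all tested genes called, 3.43% higher and 3.26% lower. There the median log2 fold change was 0.08 over the 10 genes and -0.00014 over all. Between the knockdowns, STAT5A was higher and JAK2, PIM1 and SOCS2 were lower in shMETTL3 than in shMETTL14, against 12.1% of all tested genes called, 6.65% higher and 5.49% lower in shMETTL3, and medians of 0.0014 over the 10 genes and -0.0017 over all. With 10 genes, these counts are a description. The first 2 comparisons share their shCTR libraries, and each shares its knockdown libraries with the third.

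**Figure D2:**
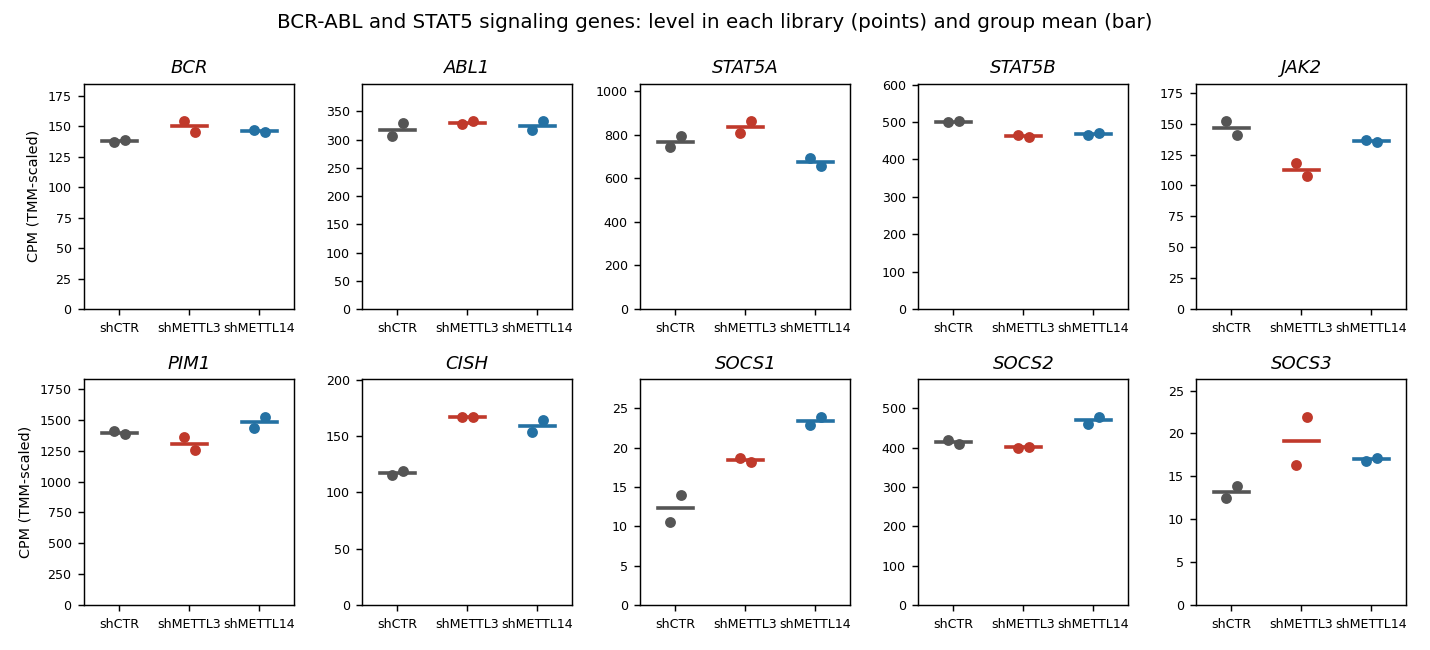
Level of each of the 10 genes in CPM (TMM-scaled) in the 2 libraries of each group (points) and the group mean (bar), with each axis starting at 0. CISH and SOCS1 sit higher in all 4 knockdown libraries than in both shCTR libraries, and JAK2 sits lowest in shMETTL3.

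BCR (ENSG00000186716, chromosome 22, 23179704 to 23318037, plus strand of GRCh38) encodes a protein with kinase and GTPase-regulating domains whose front part forms the start of the fusion. Its level was 137 and 139 CPM in shCTR, 154 and 146 CPM in shMETTL3, and 147 and 145 CPM in shMETTL14. All 4 knockdown libraries lay above both shCTR libraries, but the difference did not pass the test. The log2 fold change was 0.12 (95% interval -0.01 to 0.25, adjusted p = 0.207) in shMETTL3 and 0.08 (-0.05 to 0.21, adjusted p = 0.497) in shMETTL14. Of 9 BCR pseudogenes in the table, the most abundant, BCRP3, had 19 to 60 counts per library, beside 2658 to 3028 counts for BCR.

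ABL1 (ENSG00000097007, chromosome 9, 130713946 to 130887675, plus strand) encodes the tyrosine kinase that supplies the catalytic part of the fusion. It was at 306 and 329 CPM in shCTR, 327 and 333 CPM in shMETTL3, and 317 and 332 CPM in shMETTL14, so the 3 groups overlapped. The log2 fold change was 0.06 (95% interval -0.07 to 0.18, adjusted p = 0.566) in shMETTL3 and 0.03 (-0.09 to 0.16, adjusted p = 0.805) in shMETTL14. Reads are counted per gene, so transcripts of the fusion cannot be told apart from those of the normal BCR and ABL1 copies. Under a correction for GC content and length, the log2 fold change in shMETTL3 turned to -0.05 for BCR and to -0.07 for ABL1, neither called.

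JAK2 (ENSG00000096968, chromosome 9, 4984390 to 5128183, plus strand), the kinase attached to the erythropoietin and related receptors, was at 152 and 141 CPM in shCTR. In shMETTL3 it was at 118 and 108 CPM, below both shCTR libraries. In shMETTL14 it was at 137 and 135 CPM, between the other groups. The log2 fold change in shMETTL3 was -0.38 (SE 0.0668, adjusted p = 0.000661), or 0.770 of the shCTR level (95% interval 0.699 to 0.848), and the call held with each library left out (adjusted p at most 0.0407). In shMETTL14 the log2 fold change was -0.11 (95% interval -0.24 to 0.03, adjusted p = 0.394). The knockdowns differed by -0.27 (SE 0.0670, adjusted p = 0.00990), a call that was lost without shMETTL3 replicate 2 (-0.20, adjusted p = 0.227), without shMETTL14 replicate 1 (-0.27, adjusted p = 0.111) and without shMETTL14 replicate 2 (-0.28, adjusted p = 0.0864).

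STAT5A and STAT5B are closely related factors encoded side by side on chromosome 17, STAT5A (ENSG00000126561) on the plus strand from 42287547 to 42311943 and STAT5B (ENSG00000173757) on the minus strand from 42199168 to 42276707. STAT5A was at 743 and 791 CPM in shCTR, at 809 and 861 CPM in shMETTL3 and at 691 and 655 CPM in shMETTL14. The 3 groups did not overlap, with shMETTL3 highest and shMETTL14 lowest. Against shCTR neither knockdown passed the test, with a log2 fold change of 0.12 (95% interval 0.0021 to 0.24, adjusted p = 0.159) in shMETTL3 and -0.19 (95% interval -0.31 to -0.07, adjusted p = 0.0526) in shMETTL14. The difference between the knockdowns did pass: STAT5A was higher in shMETTL3 by 0.31 on the log2 scale (SE 0.0574, adjusted p = 0.000952), which is 1.24-fold (95% interval 1.14 to 1.35), and stayed called with each library left out (adjusted p at most 0.0486). The shMETTL14 value was near the threshold and was called in 5 of the 13 alternative fits given further on. Among these were DESeq2, the replicate block, the GC and length correction and the fit without shCTR replicate 1 (-0.23). With library size as the only scaling, STAT5A was called higher in shMETTL3 against shCTR (0.18, adjusted p = 0.0392).

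STAT5B was at 499 and 502 CPM in shCTR, at 465 and 461 CPM in shMETTL3 and at 467 and 472 CPM in shMETTL14. All 4 knockdown libraries lay below the shCTR libraries by a small step, and it was not called in any comparison, but under the GC and length correction it was called lower in shMETTL3 (-0.15, adjusted p = 0.0177). The log2 fold change was -0.11 (95% interval -0.23 to -0.00068, adjusted p = 0.164) in shMETTL3 and -0.09 (-0.21 to 0.02, adjusted p = 0.344) in shMETTL14. Reads of the 2 genes over stretches of like sequence are as the authors' counting split them.

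The share of STAT5A in the pair was higher in the shMETTL3 libraries than in the others. STAT5A made up 59.8% (95% Wilson interval 59.2 to 60.4) and 61.2% (60.6 to 61.8) of the STAT5A and STAT5B counts in the shCTR libraries. In shMETTL3 the share was 63.5% (62.9 to 64.1) and 65.1% (64.6 to 65.7), above both shCTR libraries. In shMETTL14 it was 59.7% (59.0 to 60.3) and 58.1% (57.5 to 58.8), with shMETTL14 replicate 1 next to shCTR replicate 1. These intervals cover counting error only, and the shares were not tested apart from the test of each gene.

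Within the STAT5B gene the table lists 2 sense-intronic transcripts and 1 antisense transcript that share no exon base with it. The sense-intronic ENSG00000236194 was at 103 and 82.9 CPM in shCTR, 71.7 and 71.2 CPM in shMETTL3, and 76.1 and 77.9 CPM in shMETTL14. It fell in both knockdowns, with a log2 fold change of -0.38 (SE 0.0815, adjusted p = 0.00320) in shMETTL3 and -0.27 (SE 0.0812, adjusted p = 0.0494) in shMETTL14. The other, ENSG00000278829, fell as well, by 0.34 on the log2 scale in shMETTL3 (adjusted p = 0.00724) and by 0.35 in shMETTL14 (adjusted p = 0.0119). These intronic identifiers held at most 20.6% and 18.3% of the STAT5B count in a library, were picked for their position after the overlap was computed, and cannot be told apart from unspliced STAT5B RNA in these counts.

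**Figure D3:**
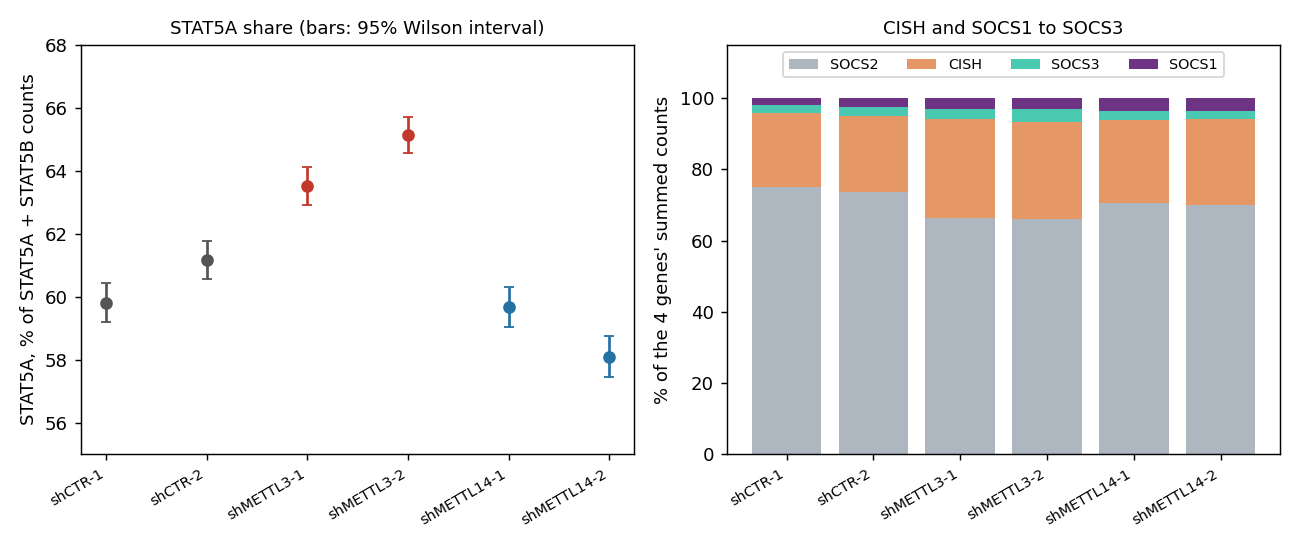
Left, share of STAT5A in the STAT5A plus STAT5B counts of each library, with 95% Wilson intervals and an axis from 55% to 68%. Right, shares of CISH, SOCS1, SOCS2 and SOCS3 in the summed counts of the 4 genes. The STAT5A share is above 63% only in the shMETTL3 libraries, and the CISH share is 20.7% and 21.4% in shCTR and 27.8% and 27.4% in shMETTL3.

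PIM1 (ENSG00000137193, chromosome 6, 37170203 to 37175426, plus strand) was at 1408 and 1385 CPM in shCTR, 1359 and 1253 CPM in shMETTL3, and 1436 and 1524 CPM in shMETTL14. The shMETTL3 libraries were the lowest and the shMETTL14 libraries the highest, by small steps. Against shCTR, the log2 fold change was -0.10 (95% interval -0.21 to 0.02, adjusted p = 0.254) in shMETTL3 and 0.08 (-0.03 to 0.20, adjusted p = 0.418) in shMETTL14. The difference between the knockdowns was -0.18 (SE 0.0552, adjusted p = 0.0375), 0.883-fold in shMETTL3 (95% interval 0.815 to 0.956). This call rests on all 4 knockdown libraries: it was lost without shMETTL3 replicate 1 (-0.24, adjusted p = 0.0744) or replicate 2 (-0.12, adjusted p = 0.464), and without shMETTL14 replicate 1 (-0.22, adjusted p = 0.0542) or replicate 2 (-0.14, adjusted p = 0.288). It was lost too with library size as the only scaling (adjusted p = 0.0815). Under the GC and length correction PIM1 was called lower in shMETTL3 against shCTR (-0.17, adjusted p = 0.0279).

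CISH (ENSG00000114737, chromosome 3, 50606490 to 50611831, minus strand), the inhibitor whose promoter is printed above, was at 116 and 119 CPM in shCTR. It was at 167 and 167 CPM in shMETTL3 and at 153 and 165 CPM in shMETTL14, so every knockdown library lay above both shCTR libraries. CISH rose 1.43-fold in shMETTL3 (95% interval 1.30 to 1.56, log2 fold change 0.51, SE 0.0629, adjusted p = 1.46e-05) and 1.36-fold in shMETTL14 (1.24 to 1.49, log2 fold change 0.44, SE 0.0630, adjusted p = 0.000145). Both calls held with each library left out, with log2 fold changes from 0.49 to 0.53 and from 0.39 to 0.49. The knockdowns themselves differed by 0.07 (95% interval -0.06 to 0.20, adjusted p = 0.529). MAPKAPK3, on the opposite strand, shares 218 exon bases (4.26%) with CISH. It rose too, from 78.8 and 93.5 CPM in shCTR to 103 and 103 CPM in shMETTL3 (log2 fold change 0.26, adjusted p = 0.0208) and 106 and 107 CPM in shMETTL14 (0.31, adjusted p = 0.0139). Whether the reads were counted by strand is not given in the sources used here, so reads over the shared bases cannot be assigned to one of the genes.

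SOCS1 (ENSG00000185338, chromosome 16, 11254405 to 11256200, minus strand) encodes an inhibitor that binds JAK kinases directly. Its counts were low, 208 to 469 per library, and its level was 10.5 and 14.0 CPM in shCTR, 18.7 and 18.2 CPM in shMETTL3, and 22.9 and 23.9 CPM in shMETTL14. The groups did not overlap, and the shCTR libraries differed from each other more than those of either knockdown. Over all tested genes the shCTR libraries also differed most. The mean chi-square per gene between the 2 libraries of a group was 5.30 in shCTR, 3.04 in shMETTL3 and 2.55 in shMETTL14. SOCS1 rose 1.5-fold in shMETTL3 (95% interval 1.26 to 1.79, log2 fold change 0.59, SE 0.121, adjusted p = 0.00234) and 1.91-fold in shMETTL14 (1.61 to 2.27, log2 fold change 0.93, SE 0.119, adjusted p = 4.30e-05). The size of the rise depended on the shCTR libraries: without shCTR replicate 1 the log2 fold changes were 0.39 in shMETTL3 and 0.74 in shMETTL14, and without shCTR replicate 2 they were 0.81 and 1.15, all called. SOCS1 was lower in shMETTL3 than in shMETTL14 by a log2 difference of -0.34 (95% interval -0.58 to -0.11), which did not pass the test (adjusted p = 0.0534). This difference was called in 5 of the 13 alternative fits, among them those without shCTR replicate 1 and without shCTR replicate 2. The whole SOCS1 gene lies inside RMI2, which runs on the opposite strand and shares no exon base with it. RMI2 was at 48.7 and 49.98 CPM in shCTR, 53.6 and 56.3 CPM in shMETTL3, and 53.8 and 57.3 CPM in shMETTL14, and was not called (log2 fold change 0.15, adjusted p = 0.151, and 0.17, adjusted p = 0.171).

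SOCS3 (ENSG00000184557, chromosome 17, 78356778 to 78360077, minus strand), an inhibitor known from the receptors that signal through gp130, was at 12.5 and 13.8 CPM in shCTR. It was at 16.3 and 21.9 CPM in shMETTL3 and at 16.8 and 17.1 CPM in shMETTL14. All knockdown libraries were above shCTR, and shMETTL3 replicate 2 stood highest. SOCS3 rose 1.45-fold in shMETTL3 (95% interval 1.21 to 1.75, log2 fold change 0.54, SE 0.127, adjusted p = 0.00662), but the call was lost without shMETTL3 replicate 2 (log2 fold change 0.31, adjusted p = 0.216) and without shCTR replicate 1 (0.46, adjusted p = 0.0545). In shMETTL14 the log2 fold change was 0.37 (95% interval 0.10 to 0.64, adjusted p = 0.0985).

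SOCS2 (ENSG00000120833, chromosome 12, 93569814 to 93583487, plus strand), best known for restraining growth hormone signaling, was not called against shCTR in either knockdown. It was at 418 and 409.8 CPM in shCTR, at 399 and 402 CPM in shMETTL3, and at 461 and 478 CPM in shMETTL14, with the shMETTL14 libraries above the others. Its log2 fold change was -0.05 (95% interval -0.16 to 0.07, adjusted p = 0.606) in shMETTL3 and 0.18 (95% interval 0.07 to 0.30, adjusted p = 0.0539) in shMETTL14. The shMETTL14 value was called in 5 of the 13 alternative fits. Among these were DESeq2, the replicate block, the GC and length correction and the fit without shCTR replicate 1 (0.20). The knockdowns differed by -0.23 (SE 0.0552, adjusted p = 0.00834), 0.853-fold in shMETTL3, which was lost without shMETTL3 replicate 1 (-0.22, adjusted p = 0.110), without shMETTL3 replicate 2 (-0.23, adjusted p = 0.108) and without shMETTL14 replicate 2 (-0.20, adjusted p = 0.121). The antisense gene SOCS2-AS1 shares 277 exon bases (4.09%) with SOCS2 and had 273 to 398 counts, beside 7847 to 9375 for SOCS2.

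Among the reads of the 4 inhibitors, the share of SOCS2 was lower and those of CISH and SOCS1 were higher in all 4 knockdown libraries than in shCTR. SOCS2 held 75.1% (95% Wilson interval 74.3 to 75.9) and 73.6% (72.8 to 74.5) of their summed counts in the shCTR libraries, 66.4% (65.6 to 67.3) and 66.0% (65.1 to 66.8) in shMETTL3, and 70.5% (69.7 to 71.3) and 69.9% (69.1 to 70.7) in shMETTL14. The CISH share went from 20.7% and 21.4% in shCTR to 27.8% and 27.4% in shMETTL3 and 23.4% and 24.1% in shMETTL14. The SOCS1 share was 1.89% and 2.52% in shCTR, 3.11% and 3.00% in shMETTL3, and 3.50% and 3.50% in shMETTL14. No group overlapped another for SOCS2, CISH or SOCS1. For SOCS3 the shares were 2.24% and 2.49% in shCTR, 2.71% and 3.60% in shMETTL3, and 2.57% and 2.51% in shMETTL14. These are shares of reads, so a longer transcript weighs more, and a rise of some of the genes lowers the share of the others. The level of SOCS2 itself was not called against shCTR, with a log2 fold change of -0.05 in shMETTL3 and 0.18 in shMETTL14. The intervals of the shares cover counting error only, with 2 libraries per group and no test of the shares.

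**Figure D4:**
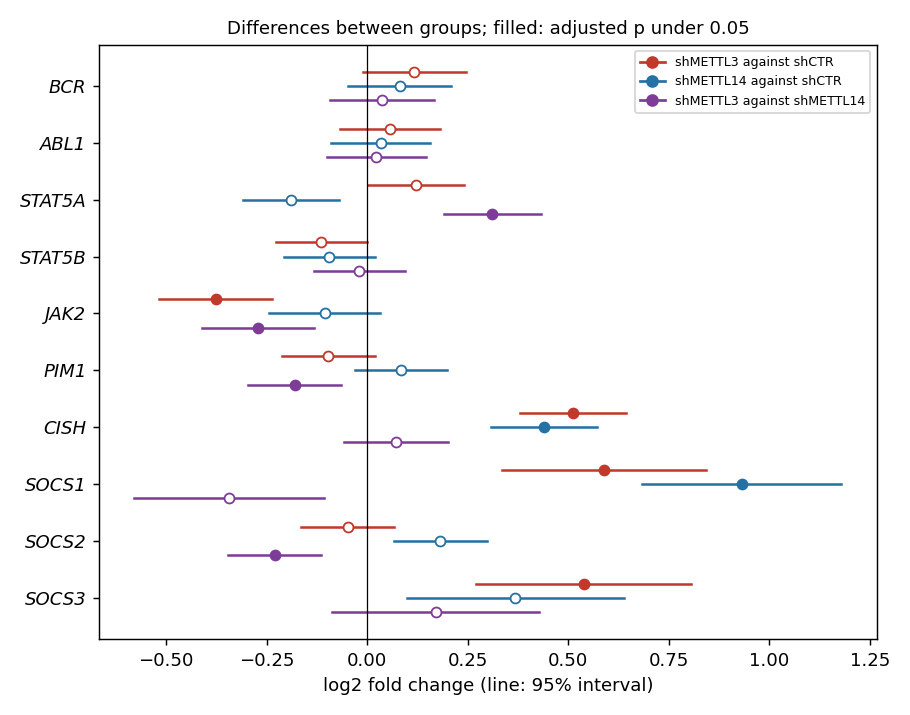
Log2 fold change of each of the 10 genes with its 95% interval in the 3 comparisons, filled where the adjusted p was under 0.05. CISH and SOCS1 lie to the right of 0 in both knockdowns, STAT5A lies on opposite sides of 0, and the intervals of BCR and ABL1 include 0 throughout.

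For each member called in some comparison, the genes with the most similar pattern were ranked by Pearson's r of log2 CPM over the 6 libraries, among 9799 genes with a mean of at least 10 CPM. With 6 libraries in 3 groups, many genes reach a high r, and the values are a description. CISH was followed most closely by MFN2, SMIM3 and CYP4V2 (r = 0.996, 0.994 and 0.994), and 84 genes had r above 0.95. For SOCS1 these were AP1B1, GLRX5 and KLHL6 (r = 0.995, 0.994 and 0.993), with 98 genes above 0.95, and for SOCS3 they were LTB4R, MEA1 and CXXC5 (r = 0.996, 0.990 and 0.987), with 55. JAK2 had the most genes above 0.95, 230, led by VWA8, PDE4DIPP2 and CREBZF (r = 0.996, 0.996 and 0.995). STAT5A was led by AC007405.3, MORN4 and CHST2 (r = 0.998, 0.993 and 0.993), SOCS2 by LEPROT, SS18 and LGALS3 (r = 0.997, 0.996 and 0.995), and PIM1, with the fewest at 23, by LAMTOR5, BNIP3L and CFAP53 (r = 0.997, 0.988 and 0.986).

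The letters GGACT, a common context of N6-methyladenosine, were counted in the longest protein-coding transcript of each gene (GENCODE release 29). CISH had 5 in 2167 bases, 2.31 per kb, and PIM1 had 6 in 2650 bases, 2.26 per kb, against a median of 0.933 per kb over 12512 tested genes. JAK2 was the lowest of the 10 at 0.568 per kb (3 in 5285 bases) and STAT5B next at 0.784 per kb, both under that median. The other members lay from BCR at 0.988 to SOCS3 at 1.83 per kb, with STAT5A at 1.63, SOCS2 at 1.61, ABL1 at 1.39 and SOCS1 at 1.12. These counts describe sequence, and whether any of these sites is methylated was not measured in these libraries.

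Around the 10 genes, 82 further genes of the pathway were grouped into 8 lists by role, and 68 of them passed the filter. In shMETTL3, 9 rose and 9 fell (26.5% called, against 16.5% of all tested genes), in shMETTL14 3 rose and 3 fell (8.82% against 6.69%), and 7 were higher and 7 lower in shMETTL3 than in shMETTL14 (20.6% against 12.1%). The median log2 fold change over the 68 was -0.000083 in shMETTL3 and 0.00042 in shMETTL14. So calls went evenly both ways. No gene of the 7 phosphatases or of the 4 SOCS box ubiquitin ligase partners, which carry SOCS targets to degradation, was called in any comparison by edgeR or by DESeq2. At an unadjusted p under 0.05 in edgeR, 2 phosphatases and 1 ligase partner were lower in shMETTL3, 1 phosphatase was higher and 1 ligase partner lower in shMETTL14, and none differed between the knockdowns.

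Among kinases, 9 of the 10 listed were tested. The SRC family split: SRC rose in shMETTL3 from 7.29 and 8.88 CPM to 10.6 and 12.2 CPM (log2 fold change 0.50, SE 0.146, adjusted p = 0.0236 by edgeR and 0.09995 by DESeq2), while it was at 6.11 and 5.203 CPM in shMETTL14 (-0.51, adjusted p = 0.0587). LYN, a kinase linked to imatinib resistance, fell in shMETTL3 from 109 and 118 CPM to 88.4 and 93.8 CPM (-0.31, SE 0.0676, adjusted p = 0.00321) and was at 110.1 and 116 CPM in shMETTL14. YES1 rose by 0.22 in shMETTL3 (adjusted p = 0.0262) and by 0.23 in shMETTL14 (adjusted p = 0.0415). Of the kinases related to JAK2, none was called by edgeR: in shMETTL3 the log2 fold change was 0.12 for JAK1 (adjusted p = 0.221), 0.65 for JAK3 (adjusted p = 0.0964) and -0.0069 for TYK2 (adjusted p = 0.961).

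Of 15 tested adaptors and substrates of BCR-ABL, 2 rose and 3 fell in shMETTL3. None was called in shMETTL14 by edgeR or DESeq2, and 1 was lower there at an unadjusted p under 0.05. SH2B3, which encodes the JAK2-restraining adaptor LNK, rose from 102 and 104 CPM to 134 and 147 CPM in shMETTL3 (log2 fold change 0.44, SE 0.0678, adjusted p = 0.000169) and was at 104 and 96.4 CPM in shMETTL14. The adaptor CRK rose by 0.25 (adjusted p = 0.0281 by edgeR and 0.0842 by DESeq2), and CBLB, a ubiquitin ligase that switches off receptors, fell by 0.28 on the log2 scale (adjusted p = 0.0369 by edgeR and 0.110 by DESeq2), both in shMETTL3.

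Cytokine receptors were scarce: 7 of 15 were tested, and the other 8 had at most 8 counts in any library. EPOR, the erythropoietin receptor that works through JAK2, rose from 22.8 and 28.0 CPM in shCTR to 32.3 and 32.8 CPM in shMETTL3 (log2 fold change 0.36, SE 0.0944, adjusted p = 0.0129) and 33.1 and 34.0 CPM in shMETTL14 (0.40, SE 0.0943, adjusted p = 0.0127). KIT, the stem cell factor receptor, fell in both, from 14.3 and 11.6 CPM to 5.85 and 7.08 CPM in shMETTL3 (-1.01, SE 0.147, adjusted p = 0.000104) and 8.50 and 9.39 CPM in shMETTL14 (-0.54, SE 0.142, adjusted p = 0.0253), although the shMETTL14 call was lost with DESeq2 (adjusted p = 0.0862). IL6ST, which encodes gp130, fell in shMETTL3 by 0.26 on the log2 scale (adjusted p = 0.0274 by edgeR and 0.0797 by DESeq2), and the leptin receptor LEPR rose in shMETTL14 by 0.24 (adjusted p = 0.0267). Beside these values, the summed level of the 8 erythroid markers was 842 and 931 CPM in shCTR, 1089 and 1167 CPM in shMETTL3, and 987 and 992 CPM in shMETTL14, and 3 of the 8 (HBZ, HBE1 and KLF1) rose in shMETTL3, while 2 (HBE1 and KLF1) rose in shMETTL14. The summed level of the 8 markers of other blood cells, mostly LYZ, was 48.4 and 50.5 CPM in shCTR, 26.0 and 25.3 CPM in shMETTL3, and 66.8 and 73.1 CPM in shMETTL14, with LYZ lower and CD3D higher in shMETTL3 (CD3D by edgeR only, adjusted p = 0.104 with DESeq2) and LYZ higher in shMETTL14. The part of a changed mix of cells in any result was not tested, and in bulk RNA, fewer cells with a transcript and less of it per cell cannot be told apart.

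Of the other STAT factors and inhibitors, few were called. None of the 5 STAT genes was called against shCTR by edgeR or DESeq2 (unadjusted p under 0.05 for 1 higher and 1 lower in shMETTL3 and for 2 higher in shMETTL14), and STAT6 was lower in shMETTL3 than in shMETTL14 (log2 difference -0.33, SE 0.0629, adjusted p = 0.00145). Of the 8 other SOCS and PIAS inhibitors, 1 was called against shCTR: PIAS2, which encodes a SUMO ligase, fell by 0.44 on the log2 scale in shMETTL3 (adjusted p = 0.000632). SOCS5 was lower in shMETTL3 than in shMETTL14 (-0.38, SE 0.108, adjusted p = 0.0238), a call lost with DESeq2 (adjusted p = 0.0851).

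The other targets of STAT5, of which 13 of 15 were tested, changed in both directions. In shMETTL3, 4 rose and 2 fell. Those that fell were PIM2 (log2 fold change -0.22, adjusted p = 0.0159) and MYC (-0.20, adjusted p = 0.0270). In shMETTL14 none was higher by edgeR, by DESeq2 or at an unadjusted p under 0.05, and 2 fell. CCND1, which encodes cyclin D1, was at 36.7 and 40.7 CPM in shCTR, 50.9 and 54.7 CPM in shMETTL3, and 21.8 and 17.9 CPM in shMETTL14. It rose in shMETTL3 (log2 fold change 0.45, SE 0.0881, adjusted p = 0.00163) and fell in shMETTL14 (-0.97, SE 0.0968, adjusted p = 2.74e-06), and the knockdowns differed by 1.41 (SE 0.0946, adjusted p = 5.11e-09). CDKN1A, which encodes the cell cycle inhibitor p21, rose from 33.6 and 37.4 CPM to 71.9 and 73.3 CPM in shMETTL3 (1.03, SE 0.0771, adjusted p = 2.94e-08) and was at 37.9 and 41.8 CPM in shMETTL14. ID1 rose by 0.54 in shMETTL3 (adjusted p = 0.00165), and CCND3 fell by 0.26 on the log2 scale in shMETTL14 (adjusted p = 0.0130). BCL6, a repressor known to be held down by STAT5 and the gene whose promoter window also held 4 motif matches, was at 5.87 and 5.54 CPM in shCTR, 3.61 and 5.38 CPM in shMETTL3, and 7.48 and 7.24 CPM in shMETTL14. It was not called against shCTR (-0.34, adjusted p = 0.237, and 0.37, adjusted p = 0.248) but was lower in shMETTL3 than in shMETTL14 (-0.71, SE 0.183, adjusted p = 0.0138), a call lost with DESeq2 (adjusted p = 0.0556).

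**Figure D5:**
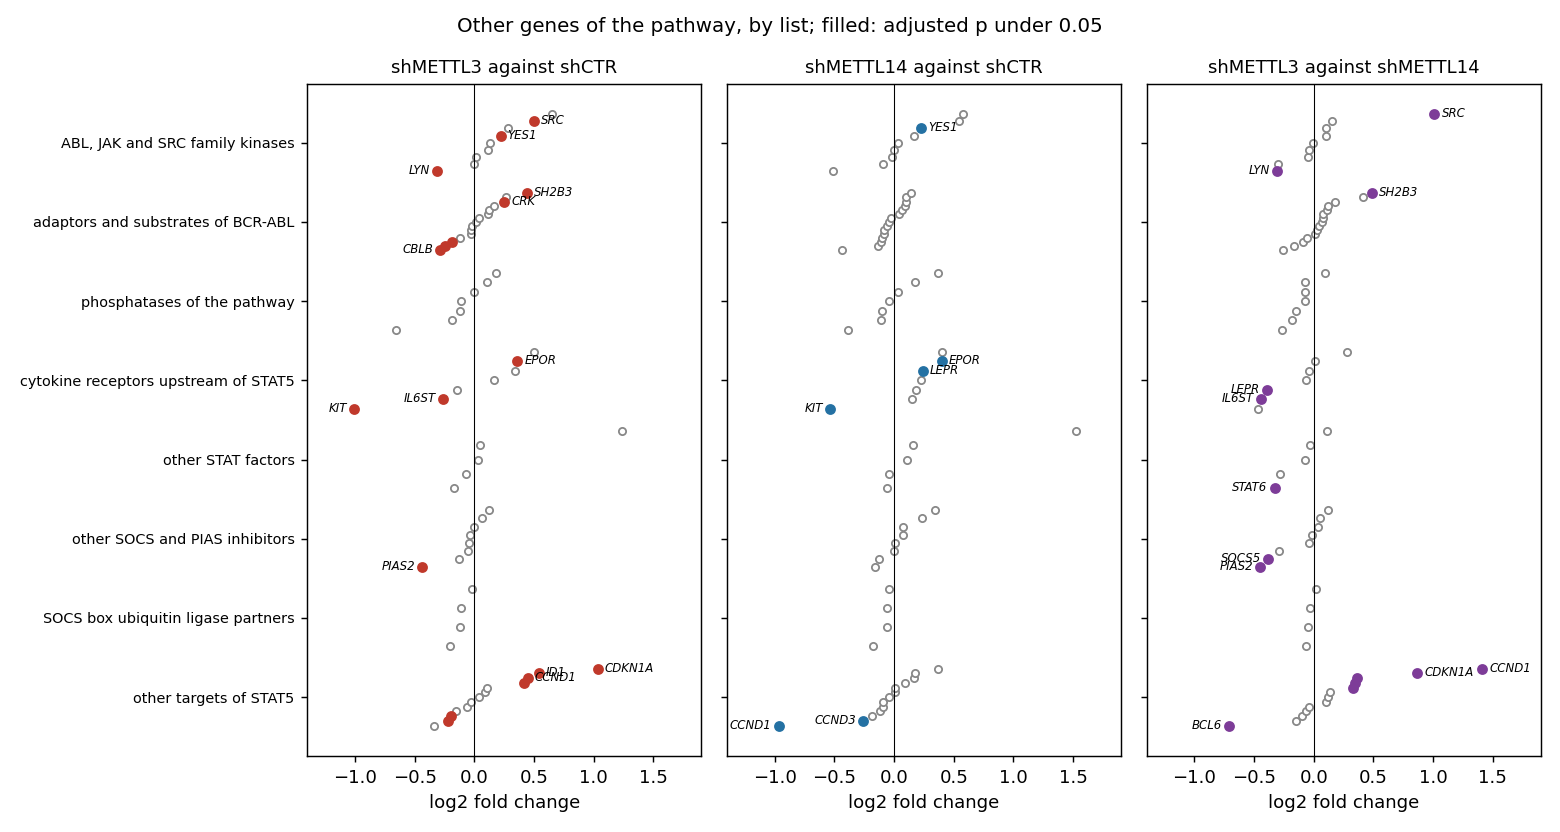
Log2 fold change of the 68 tested genes of the 8 pathway lists in the 3 comparisons, 1 point per gene, filled where the adjusted p was under 0.05 and with up to 3 named genes per list. KIT lies far left and EPOR right of 0 in both knockdowns, and CCND1 lies on opposite sides of 0 in the 2 knockdowns.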

How the data were processed

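K562 RNA-seq counts for shCTR, shMETTL3 and shMETTL14 cells (2 libraries each) were analysed, with groups and replicate numbers from the submitters' labels. The authors deposited 1 table of whole-number read counts per gene, not normalized, made from oligo(dT)-selected mRNA. The submitters' processing notes list HTSeq 0.6.1 and hg38, while the aligner and the strand setting are not given in the sources used here. Of the 61661 identifiers, 57055 had a gene name. Those without one, among them 986 that are not Ensembl genes, stayed in the library totals. Symbols came from a gene name table and GENCODE release 29, which also gave positions, exon lengths and overlaps. The 10 members and the pathway and marker lists were chosen with earlier results of these data known. Some genes of the lists are not reported here.

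In R 4.3.3, edgeR 4.0.16 was run with filterByExpr (minimum count 10), TMM factors and the quasi-likelihood test in one fit over the 6 libraries, without a replicate block, adjusted by Benjamini-Hochberg and called under 0.05. SE and 95% intervals come from that test. Named genes of the lists were, per list and comparison, up to 3 called genes with the largest absolute fold change, with 10 counts or more in each library compared and groups that did not overlap. PIM2 and MYC were named beyond this rule. Similar patterns used log2 CPM with a prior count of 2. The steps were tested on simulated data. Alternatives were DESeq2 1.42.0, its size factors, library size alone, no filter, the compared groups only, a replicate block, a correction for GC content and length (mgcv 1.9.3) and each library left out. DESeq2 for the named list genes was added after seeing the data.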

Additional observations from a re-analysis of the deposited data

Results flagged for a closer look

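The following genes differed between the 2 knockdowns, by the direct test of shMETTL3 against shMETTL14 in edgeR, after both had been compared with the same shCTR libraries. Values are log2 differences, positive where shMETTL3 was higher. Among the members these were STAT5A (0.31, adjusted p = 0.000952), JAK2 (-0.27, adjusted p = 0.00990), SOCS2 (-0.23, adjusted p = 0.00834) and PIM1 (-0.18, adjusted p = 0.0375), and the calls of JAK2, SOCS2 and PIM1 were lost with single libraries left out, as given in the report.

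Among the other genes of the pathway, the kinase SRC (1.01, adjusted p = 0.000133), the adaptor SH2B3 (0.49, adjusted p = 5.64e-05), cyclin D1 gene CCND1 (1.41, adjusted p = 5.11e-09) and CDKN1A (0.86, adjusted p = 2.18e-07) were higher in shMETTL3. LYN (-0.31, adjusted p = 0.00393), IL6ST (-0.45, adjusted p = 0.000597), LEPR (-0.39, adjusted p = 0.000317), STAT6 (-0.33, adjusted p = 0.00145), PIAS2 (-0.45, adjusted p = 0.000522), SOCS5 (-0.38, adjusted p = 0.0238) and BCL6 (-0.71, adjusted p = 0.0138) were lower, and the calls of SOCS5 (adjusted p = 0.0851) and BCL6 (adjusted p = 0.0556) were lost with DESeq2. MCL1 (0.33, adjusted p = 0.000833), CCND3 (0.35, adjusted p = 0.000527) and ID1 (0.36, adjusted p = 0.0281) were higher in shMETTL3 as well. In all, 7 of the 68 tested pathway genes were higher and 7 lower (20.6% called). Across all tested genes, 12.1% were called in this comparison.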

How the results depend on the processing

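Over 390 values of the members' log2 fold changes under the alternatives, 347 kept their direction and side of the threshold, 13 lost a call, 18 gained one and 12 changed sign, all 12 without a call. The cause of these changes was not tested. Counts of all called genes (2912, 1184 and 2148 for shMETTL3 against shCTR, shMETTL14 against shCTR and shMETTL3 against shMETTL14) became 1881, 763 and 1327 with DESeq2, and 1184 became 766 with no filter. With single libraries left out they ranged from 1102 to 3569, from 341 to 1913 and from 942 to 2953. With library size alone, the share of calls that were higher moved from 53.0% to 71.6%, from 51.3% to 62.6% and from 54.8% to 65.0%. Members called in shMETTL14 against shCTR, 2 in the report, were 4 with DESeq2, with the replicate block and with the GC and length correction, since STAT5A and SOCS2 were then called, and from 2 to 4 with single libraries left out. In shMETTL3 against shCTR, 4 in the report, they were 5 with library size alone (STAT5A added) and 6 with the GC and length correction (STAT5B and PIM1 added, both lower), and ranged from 3 to 4 and in shMETTL3 against shMETTL14 from 1 to 5 with single libraries left out. The replicate numbers did not pair the libraries (same-number deviations correlated at 0.06, 0.0051 and -0.02), and under the replicate block the counts of all called genes were 3264, 1459 and 2478. Signs changed for SOCS2 (0.0076) in shMETTL3 against shCTR and STAT5B (0.0098) between the knockdowns with library size alone. Under the GC and length correction they changed for BCR (-0.047 in shMETTL3 against shCTR and -0.059 between the knockdowns) and ABL1 (-0.070, -0.012 in shMETTL14 against shCTR, and -0.058 between the knockdowns). With single libraries left out, ABL1 ranged from -0.019 to 0.086 in shMETTL14 against shCTR (below 0 without shCTR replicate 1, and at -0.00087 without shMETTL14 replicate 2) and from -0.012 (without shMETTL14 replicate 1) to 0.058 between the knockdowns, where BCR ranged from -0.0028 (without shMETTL3 replicate 1) to 0.082 and SOCS3 from -0.057 (without shMETTL3 replicate 2) to 0.37. Depth limits SOCS1 and SOCS3, at 208 to 469 counts a library.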
